A study of Mus musculus with 4 samples.

Results

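The major satellite windows are 5 stretches of 10 kb of the mouse reference mm9, namely chr9:3000001-3040000, which makes 4 consecutive windows, and chr2:98500001-98510000. Their members are all cytosines listed there by any of 4 libraries. These are 915 bases of the 448023 listed in the series, or 1539 of 472220 entries when each library's list is counted. The windows were chosen by measured values, as the 5 with the largest gain in listed sites when Tdg was targeted by an shRNA, so that contrast is described below without a test. The material was mouse embryonic stem cells labelled E14, the name of an established line, and the assay was methylation-assisted bisulfite sequencing (MAB-Seq). 2 whole-genome libraries, called wt replicate 1 and wt replicate 2 here, came from wild-type cells. 2 reduced-representation libraries, cut with the restriction enzyme MspI, came from cells that carried a control shRNA (shCtr) or the Tdg shRNA (shTdg). The labels give neither the shRNA sequences, the vector, the time of knockdown nor the remaining Tdg, and do not say whether the wild-type libraries came from separate cultures.

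Major satellite DNA is the tandem repeat of the heterochromatin beside mouse centromeres. It lies in long arrays of near-identical copies, is rich in A and T and is heavily methylated at its CpGs in most cells. TET enzymes oxidise 5-methylcytosine stepwise to 5-formylcytosine (5fC) and 5-carboxylcytosine (5caC), and TDG, a DNA glycosylase, excises these 2 bases. In MAB-Seq, the enzyme M.SssI first methylates unmodified CpGs, so that a CpG cytosine read as converted after bisulfite held 5fC or 5caC or had escaped the enzyme. Levels are percentages of converted reads, from which the authors had taken off a background. A reference copy can collect reads of many copies, so a level in these windows is an average over copies that were not told apart.

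The sequence around each CpG was deposited for wt replicate 1, as 5 bases read on the plus strand. These 5-base contexts are the sequence shown here because they show which bases recur in the windows. 5 of them made up 301 of the 374 CpGs listed in the windows, or 80.5%, against 6.53% outside. On chromosome 9 this was 287 of 322 CpGs, or 89.1%, but on chromosome 2 it was 14 of 52, or 26.9%. The 5 contexts were, from the most to the least frequent and with the CpG in capitals:
125 CpGs: caCGt
82 CpGs: ctCGc
41 CpGs: tcCGt
34 CpGs: ttCGt
19 CpGs: gtCGt
Outside the windows these contexts made up 2.00%, 1.48%, 1.36%, 0.721% and 0.966% of CpGs. The windows used 29 of the 64 possible contexts.

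On chromosome 9 the same contexts followed each other at fixed distances. Among the 281 steps between neighbouring listed CpGs no longer than a repeat unit, ctCGc was followed 12 bp later by caCGt 32 times. The context caCGt was followed 16 bp later by ttCGt 24 times and 28 bp later by tcCGt 24 times, and tcCGt was followed 18 bp later by ctCGc 17 times. A step of 42 bp from ctCGc to caCGt occurred 13 times, and a step of 15 bp from ttCGt to gtCGt 9 times. The rarer links were 48 bp from caCGt to ctCGc, found 7 times and rivalled by 46 bp, found 6 times, and 55 bp from gtCGt to caCGt, found 5 times. Placed in a ring of 8 CpGs, an order chosen after the steps were seen, these commonest steps add up to the unit length found by the scan of periods below, which is also the known length of the major satellite unit. The ring is written out here to show the spacing, with the CpGs in capitals and n for each base that the deposited contexts do not give. It is a composite of many copies and not the sequence of a particular copy.
Unit, plus strand of chromosome 9: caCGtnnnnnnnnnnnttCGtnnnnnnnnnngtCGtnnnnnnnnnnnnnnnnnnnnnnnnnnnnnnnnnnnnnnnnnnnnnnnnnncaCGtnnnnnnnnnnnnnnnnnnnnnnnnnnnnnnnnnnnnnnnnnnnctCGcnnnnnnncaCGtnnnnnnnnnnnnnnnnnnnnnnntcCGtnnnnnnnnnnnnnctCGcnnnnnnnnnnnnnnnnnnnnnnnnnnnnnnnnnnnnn
The ring holds caCGt at 3 places, ctCGc at 2 and each other context at 1.

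Positions of listed sites on chromosome 9 repeated with the satellite unit, in the whole-genome libraries and with shTdg. All periods from 150 to 350 bp were tried, and the unit length was taken as the one with the most pairs in wt replicate 1, where 199 of 5785 pairs of sites at most 2000 bp apart, or 3.44%, were a whole number of units apart. The other periods there had a median of 0.363% and a highest value of 1.64% at 156 bp. The same period led in wt replicate 2 and with shTdg, which did not set it but listed many of the same reference bases. On chromosome 9, 235 of 322 CpGs of wt replicate 1 were in wt replicate 2, and 325 of 352 shTdg sites in a wild-type library. The lists are therefore not independent evidence of the period. In wt replicate 2 the share at this period, counted within a strand, was 2.63% of 10426 pairs, against 1.47% for the next period. With shTdg it was 1.97% of 7558 pairs, against 1.26%, counted over both strands since the file does not separate them. The shCtr list held 155 pairs on chromosome 9, of which 4 were at a multiple of the unit, as many as at 263 bp. Outside the windows the share at the unit length was 0.294% in wt replicate 1, 0.284% in wt replicate 2, 0.162% with shCtr and 0.714% with shTdg.

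**Figure D1:**
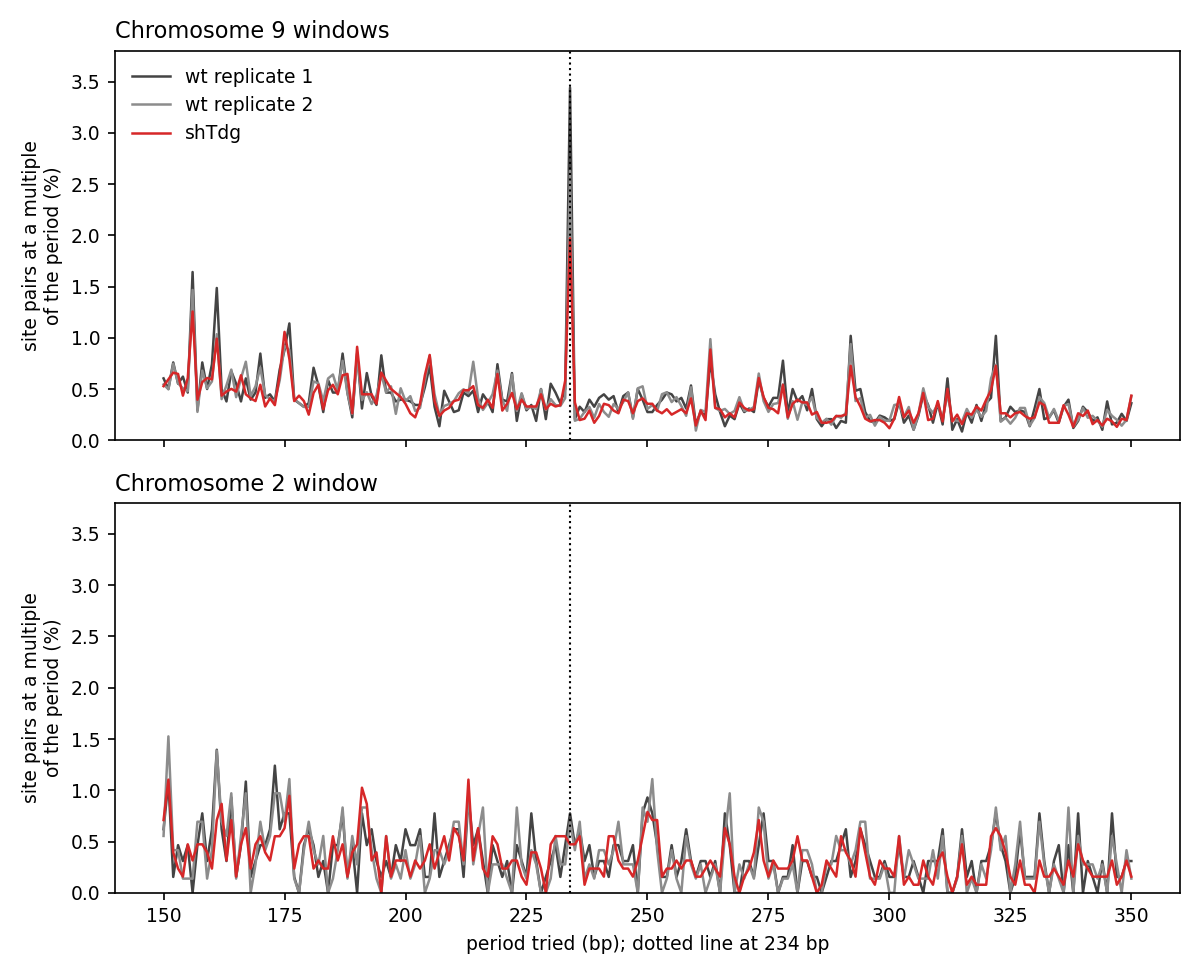
Share of pairs of listed sites at most 2000 bp apart (vertical axis, percent) whose distance is a multiple of the period on the horizontal axis (bp), for 3 libraries. On chromosome 9 the lines peak at the unit length (dotted), with 3.44% in wt replicate 1, 2.63% in wt replicate 2 and 1.97% with shTdg, and on chromosome 2 they do not.

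Contexts repeated with the unit. Of 57 pairs of chromosome 9 CpGs exactly 1 unit apart in wt replicate 1, 44 had the same 5 bases, and so did 38 of 46 pairs at 2 units (468 bp) and 24 of 27 at 3 units (702 bp). Among all pairs up to 2000 bp apart the share was 22.4%. The copies were not in a fixed frame over the 40 kb. Counted in units from the first base of the windows, the 1316 chromosome 9 entries of the 4 lists, which cover 816 bases, used 204 positions of the unit. The 12 fullest positions held 257 entries, or 19.5%, and were picked for being the fullest. A base in several lists counts once for each. Position 105 held 30 entries, of which 5 were in wt replicate 1, 14 in wt replicate 2, 1 with shCtr and 10 with shTdg. Position 45 followed with 25 entries, and the other 10 held 18 to 24 each.

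The chromosome 2 window did not show this period, and the 5 frequent contexts made up 26.9% of its CpGs, so the label rests there on the steps between CpGs. In wt replicate 1, 5 of 645 pairs were at a multiple of the unit, or 0.775%, which put it at rank 15 among the periods tried. In wt replicate 2 the share was 0.693% and with shTdg 0.473%, and the leading period was 151 bp in both, tied with 213 bp for shTdg. Yet 22 of the 46 steps between neighbouring listed CpGs matched a step of the chromosome 9 unit in distance and in the 4 bases around both CpGs, or 47.8% (32.9% to 63.1%). Intervals here and below are exact (95%) and cover counting error only, and treat sites and reads as independent, which neighbouring sites and PCR copies are not. Outside the windows 0.163% of 126353 steps matched. On chromosome 9, from which the steps were taken, the share was 48.8%. Of the 22 matches on chromosome 2, 8 read in the same direction as on chromosome 9 and 14 as its reverse complement, whereas all 137 matches on chromosome 9 read in the same direction.

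The direction of the repeat can also be read from the bases beside the CpG. The 4 frequent contexts other than caCGt have a pyrimidine (C or T) directly on each side of the CpG on the plus strand and therefore purines (A or G) on the minus strand. On chromosome 9, 181 CpGs in wt replicate 1 had pyrimidine flanks on the plus strand and 2 had purine flanks. On chromosome 2 the numbers were 11 and 19. There the pyrimidine-flanked CpGs lay between 98502437 and 98504195. Most purine-flanked CpGs lay downstream, at 98505109 to 98507482, where no pyrimidine-flanked CpG was listed, and 5 lay at 98502722 to 98503141, among the first group. Outside the windows the numbers were 68409 and 84503.

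**Figure D2:**
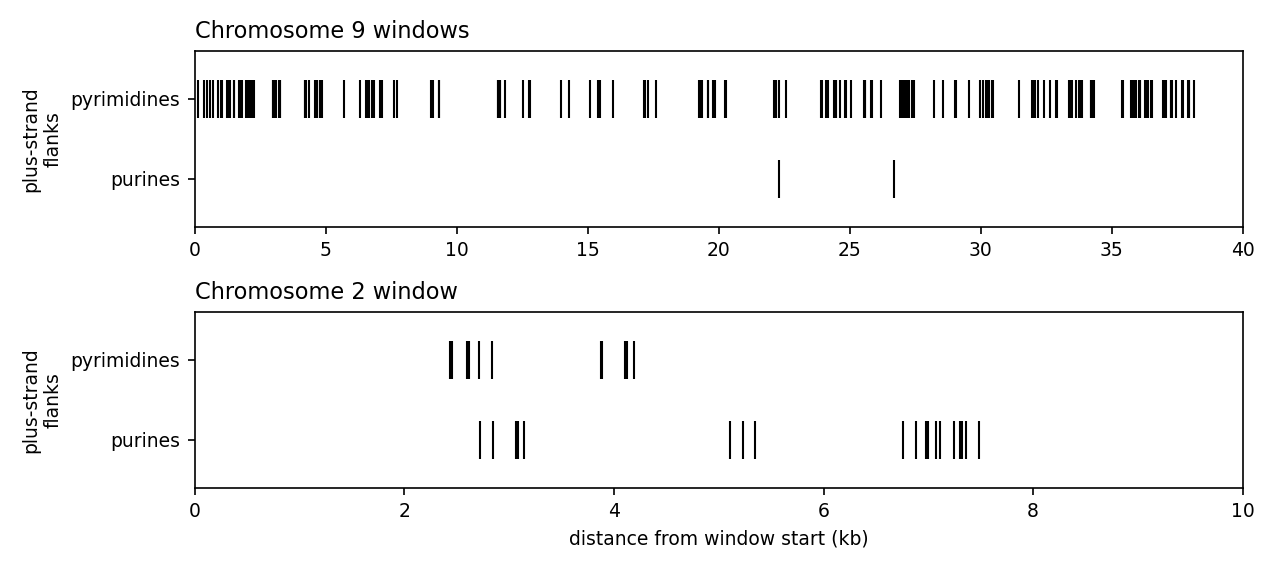
Flanks of the CpG on the plus strand (vertical axis, purines or pyrimidines on both sides) against distance from the start of the windows (horizontal axis, kb), with a tick for each CpG of wt replicate 1 that has such flanks. The other 139 CpGs on chromosome 9 and 22 on chromosome 2, which include every caCGt, are not drawn. On chromosome 9, 181 of 183 CpGs have pyrimidine flanks, and on chromosome 2 the 30 CpGs change from mostly pyrimidine to purine flanks along the window.

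Every library listed sites along most of the chromosome 9 windows, but shCtr did so thinly. Wt replicate 1 listed 322 CpGs between 3000117 and 3038240, with a median of 42 bp from a site to the next. Wt replicate 2 listed 591 cytosines with a median of 18 bp, shTdg 352 with 27 bp, and shCtr 51 with 256.5 bp. Of the 40 bins of 1 kb, 37 held a site in wt replicate 1, 39 in wt replicate 2, 23 with shCtr and 32 with shTdg. The bin from 3000001 to 3001000 was the fullest in wt replicate 2, with 30 sites, and with shTdg, with 26. The fullest in wt replicate 1, with 20, was the bin from 3037001 to 3038000. Bins that were full in a library tended to be full in the others. Across the 40 bins Spearman's rho was 0.87 between wt replicate 2 and shTdg, 0.83 between the shRNA libraries and 0.69 between the wild-type libraries. The bins share the reference sequence, and the parts of CpG number and alignability in these values were not tested.

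On chromosome 2 the listed sites lay on a stretch of about 5 kb. Wt replicate 2 listed 77 cytosines between 98502421 and 98507412, shCtr 22 between 98502422 and 98507412, and shTdg 72 between 98502422 and 98507413. Wt replicate 1 listed 52 CpGs, of which 1 lay apart at 98500982. In shCtr, 11 of the 22 sites lay in the single bin from 98507001 to 98508000, where shTdg listed 22, wt replicate 1 listed 13 and wt replicate 2 listed 20. Beyond the windows the lists all but ended. In the next 10 kb of chromosome 9 the wild-type libraries listed 1 site each and the shRNA libraries none, which allows up to 3.69 sites. In the 10 kb on either side of the chromosome 2 window, wt replicate 1 listed 1 site and the other libraries none.

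**Figure D3:**
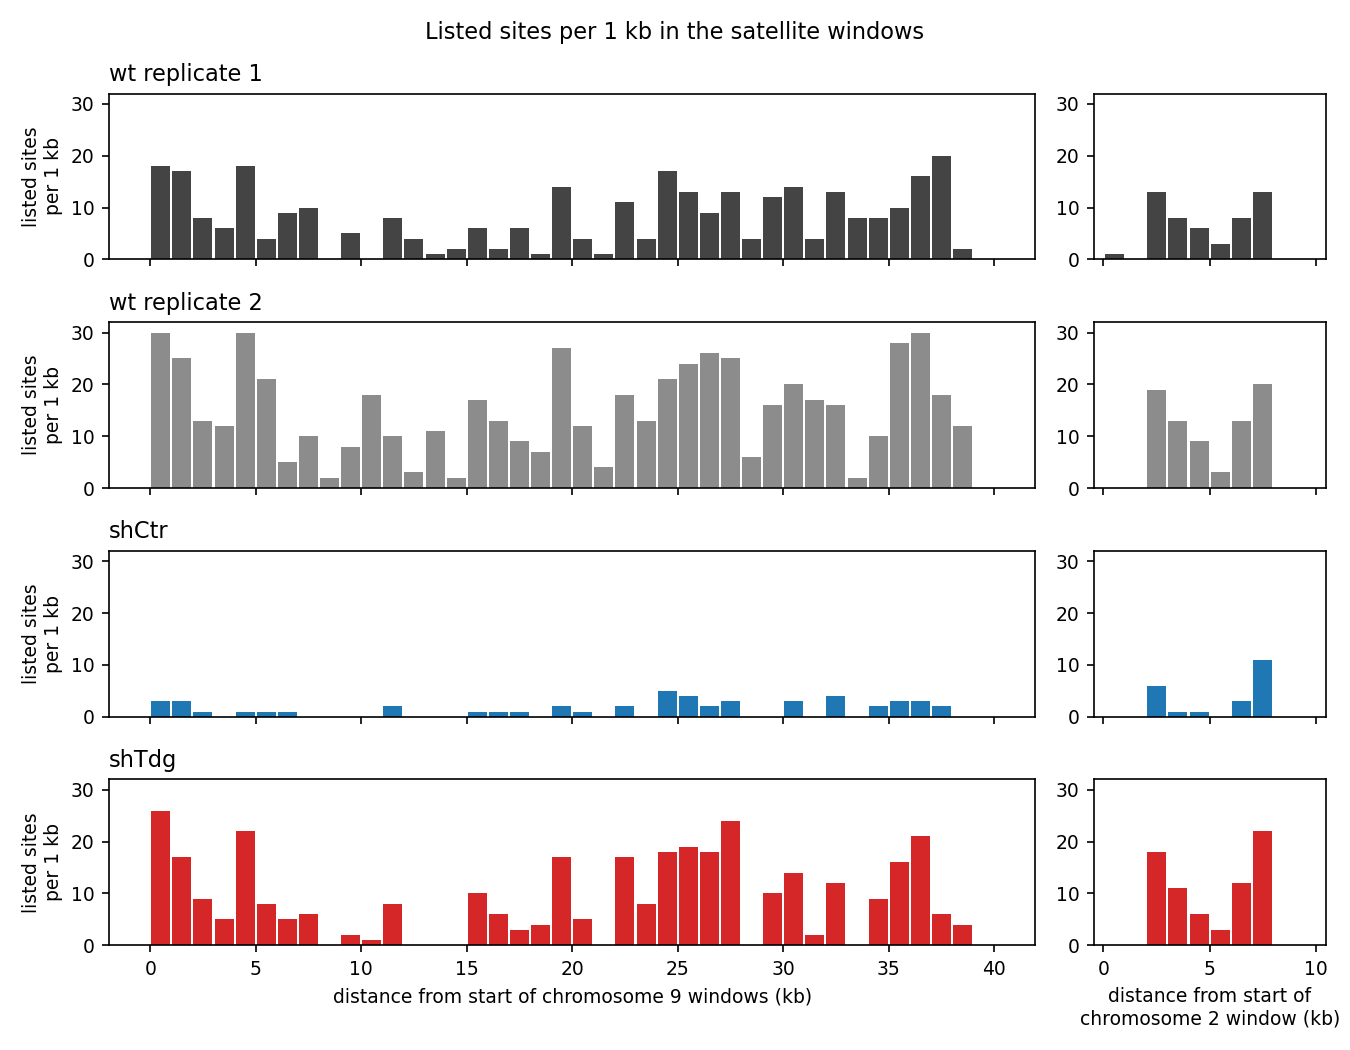
Listed sites per 1 kb bin (vertical axis, number) along the chromosome 9 windows (left) and the chromosome 2 window (right), by distance from their start (kb), in each library. The shTdg bars follow those of wt replicate 2 with up to 26 sites a bin, while shCtr has at most 5 a bin on chromosome 9 and 11 on chromosome 2.

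The gain that chose the windows was the following. With shTdg, 424 sites were listed and with shCtr 73, a ratio of 5.81, while outside the windows the ratio was 0.665. It was 6.90 on chromosome 9, with 352 and 51 sites, and 3.27 on chromosome 2, with 72 and 22. The smallest gain inside was in the window from 3010001 to 3020000, with 49 and 7 sites. The largest gain outside was on unplaced contigs (chrUn_random) from 5490001 to 5500000, with 38 and 1. These windows held 4.74% of the shTdg list, 0.566% of the shCtr list, 0.564% of the wt replicate 2 list and 0.113% of the wt replicate 1 list. The depth of the shRNA libraries is unknown.

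The sites that the shRNA libraries listed in the windows were almost all listed in wild-type cells too. At the same base, 389 of 424 shTdg sites were listed in at least 1 wild-type library, or 91.7% (88.7% to 94.2%), against 14.9% over the whole shTdg list and 11.1% outside the windows. For shCtr the count was 70 of 73, or 95.9% (88.5% to 99.1%), against 4.92% over its whole list and 4.41% outside. The wild-type libraries did not enter the choice of the windows. Wt replicate 2, which lists both strands, alone held 355 of the shTdg and 68 of the shCtr sites. Wt replicate 1, which lists the plus strand alone, held 148 and 22. Its list includes sites at 0, among them 70 of these 148, so being listed there does not mean a level above background. The density of listed wild-type sites differs as well, so these shares do not measure how often a single call recurs.

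The wild-type libraries also shared more of their sites in the windows than elsewhere. Of the plus-strand sites of wt replicate 2, 163 of 232, or 70.3% (63.9% to 76.1%), were in wt replicate 1, against 35.1% outside. With strands merged, 281 of the 374 CpGs of wt replicate 1 were listed in wt replicate 2, or 75.1% (70.4% to 79.4%), against 8.27% outside. On chromosome 2 this was 46 of 52 CpGs and on chromosome 9 235 of 322. Sharing a listing is not sharing a level above background. Of the 281 CpGs, wt replicate 2 listed 118 on the minus strand alone, and 85 of those were at 0 in wt replicate 1. Also at 0 there were 68 of the 140 listed on both strands and 6 of the 23 on the plus strand alone.

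Read depth moved with these results. It can be recovered from the deposited p-values of wt replicate 2 where these exceed 1e-07, which held for 190 of its 668 sites with a single match. The median was 170 reads (134 to 230, quartiles 63 and 501.25), against 13 outside the windows. It was 156 on chromosome 9 over 181 sites and 700 on chromosome 2 over 9 sites, and the deepest site had 9406 reads. The p-value was at or below 1e-07 at 473 sites, or 70.8%, against 14.3% outside, and at the few remaining sites the reads had no single match. At the sites with recovered reads, the median share of converted reads before correction was 10.3%, against 27.3% outside. Deep sites can be listed at lower shares, and the strongest sites have no recovered reads, so these 2 medians do not compare levels. The part of depth in the sharing of sites was not tested.

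Listing on both strands of a CpG was common in these windows and rare elsewhere. In wt replicate 2, 198 of 470 CpGs had both cytosines listed, or 42.1% (37.6% to 46.7%), against 0.764% over the whole list and 0.598% outside. The shRNA files mark every position as plus strand, so here adjacent positions were taken as the strands of a CpG. With shTdg, 129 of 295 CpGs, or 43.7% (37.99% to 49.6%), had both listed, against 1.98% over the whole list and 0.531% outside. With shCtr it was 5 of 68, or 7.35% (2.43% to 16.3%), against 0.109% and 0.0702%. Of all CpGs of the shTdg list with both strands listed, 74.1% lay in these windows, which held 4.74% of its sites. For wt replicate 2 the share was 22.0%. Depth was higher here too, as given above, and its part was not tested.

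On chromosome 9 the minus strand was listed more often than the plus strand. Wt replicate 2 listed 400 minus-strand and 191 plus-strand cytosines there, so that 67.7% (63.7% to 71.4%) were on the minus strand, against 50% over the whole list. Of its 421 CpGs, 230 were listed on the minus strand alone and 21 on the plus strand alone. Shared positions with the wild-type lists gave the strand of most shRNA sites. On chromosome 9 shTdg had 210 minus and 134 plus sites, with 8 unknown, and shCtr 41 and 10. On chromosome 2, where the repeat runs in both directions, neither strand led, with 36 minus and 41 plus sites in wt replicate 2 and 35 and 36 with shTdg. Depth differed between the strands in wt replicate 2. Over both chromosomes, the recovered reads had a median of 261.5 for minus-strand and 120 for plus-strand sites. Whether this accounts for the unequal lists was not tested.

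**Figure D4:**
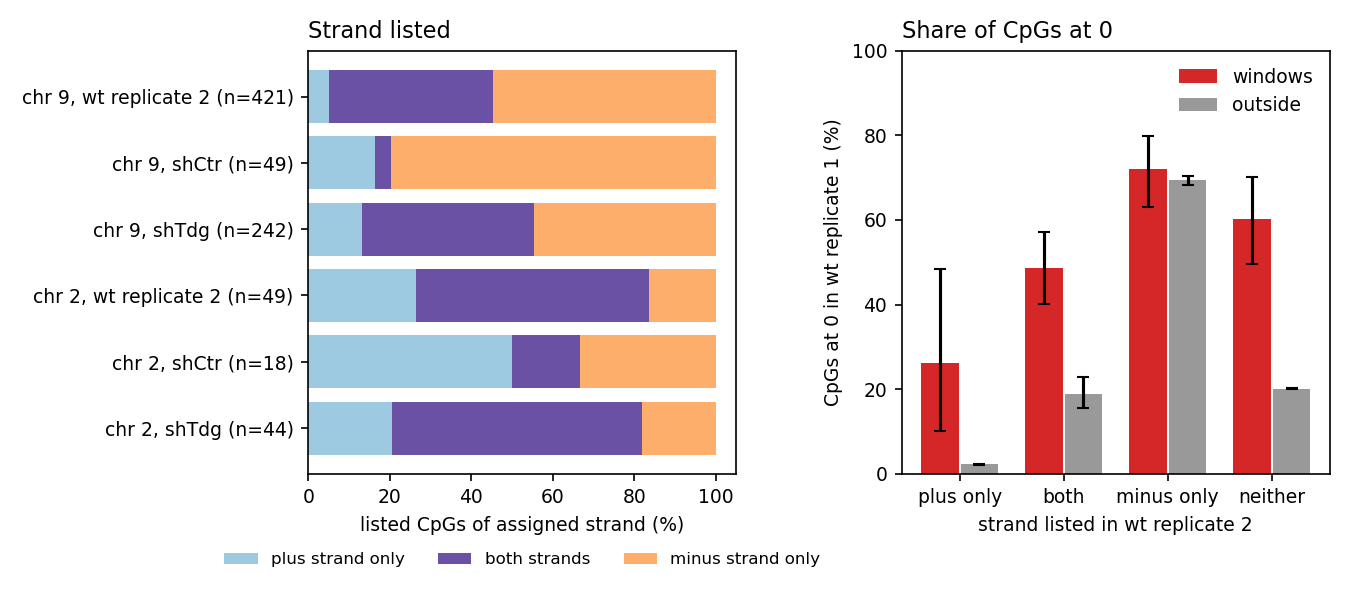
Left, share of listed CpGs of assigned strand (horizontal axis, percent) listed on the plus strand only, both or the minus strand only, by chromosome and library. Right, share of CpGs at 0 in wt replicate 1 (vertical axis, percent, with exact 95% intervals) by the strand listed in wt replicate 2, in the windows and outside. The minus-only part exceeds the plus-only part in the 3 libraries on chromosome 9, and CpGs listed on the minus strand only were mostly at 0 (72.0% in the windows and 69.4% outside).

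Strands were also counted by context. For caCGt, wt replicate 2 listed 93 minus-strand and 48 plus-strand cytosines, shTdg 65 and 41, and shCtr 17 and 1. For ctCGc the numbers were 56 and 25 in wt replicate 2, 33 and 30 with shTdg, and 11 and 6 with shCtr. For tcCGt they were 30 and 24, 25 and 21, and 3 and 5, the last being the exception. For ttCGt they were 17 and 15, 15 and 9, and 5 and 0, and for gtCGt 9 and 5, 7 and 2, and 0 and 0. A count by flanks was made at CpGs listed in wt replicate 1 that have pyrimidines on the plus strand. On chromosome 9, 62.6% (55.3% to 69.5%) of the wt replicate 2 cytosines at such CpGs were on the purine-flanked strand, which is the minus strand, against 37.0% outside the windows. With purines on the plus strand, the purine-flanked share was 82.5% outside, and 15 of 24 such cytosines on chromosome 2. With pyrimidines on the plus strand, chromosome 2 had 9 cytosines on the purine-flanked and 9 on the pyrimidine-flanked strand, so neither led. On chromosome 9 the purine-flanked share at such CpGs was 55.7% (47.3% to 63.8%) with shTdg and 67.9% (47.6% to 84.1%) with shCtr. Both intervals include 50%. Choosing CpGs by their listing on the plus strand favours that strand in each of these counts.

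Levels of the plus-strand cytosines in wt replicate 1 were low in the windows. The median was 0 over 374 CpGs, the upper quartile 4.72% and the highest 99.8%, against a median of 11.1% outside. At 0 were 215 CpGs, or 57.5% (52.3% to 62.6%), against 20.1% over the whole list. On chromosome 9 this was 202 of 322 CpGs and on chromosome 2 it was 13 of 52, where the median was 3.66% (1.86% to 5.05%). By context, 91 of 125 caCGt CpGs were at 0, or 72.8%, and 52 of 82 ctCGc CpGs, or 63.4%, against 24.6% and 33.3% of the same contexts outside. For tcCGt the share was 51.2%, against 23.8% outside. For ttCGt it was 47.1%, against 23.9%. For gtCGt it was 52.6%, against 16.8%.

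Plus-strand level and strand of listing went together. Of the 118 CpGs of wt replicate 1 that wt replicate 2 listed on the minus strand alone, 72.0% (63.0% to 79.9%) were at 0, and outside the windows 69.4% were. Of the 23 listed on the plus strand alone, 26.1% (10.2% to 48.4%) were at 0, against 2.20% outside. Of the 140 listed on both strands, 48.6% (40.04% to 57.2%) were at 0, against 19.0% outside. A plus-strand cytosine called in wt replicate 2 was thus listed at 0 in wt replicate 1 more often here than elsewhere. The depth of wt replicate 1 is unknown.

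Neither shRNA list held a site at 0. With shTdg the median was 9.41% (8.24% to 10.3%) over 424 sites, from 0.662% to 100%, against 12.5% outside. With shCtr it was 11.7% (9.89% to 14.2%) over 73 sites, from 2.22% to 99.7%, against 9.89% outside. Levels below 5% made up 106 of the 424 shTdg sites in the windows and 324 of the 8524 outside, and with shCtr 15.1% and 15.9%. Chromosome 2 was lower in both, with medians of 6.34% with shTdg and 7.62% with shCtr, against 9.80% and 14.2% on chromosome 9. At the 148 plus-strand cytosines listed in both wt replicate 1 and shTdg, the medians were 0.412% and 9.61%, and 121 were higher with shTdg. Outside, 58.8% of 480 such sites were higher, with medians of 16.5% and 17.3%. In wt replicate 1, 70 of the 148 sites were at 0, against 75 of the 480 outside. As the shTdg list held no site at 0, these had to come out higher with shTdg. The 2 shares of higher sites therefore differ in part by the share of sites at 0. Cells and protocol differ between these libraries.

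With shTdg the levels of both strands of a CpG can be compared. At the 129 CpGs listed on both strands the plus strand had a median of 10.1% and the minus strand 7.03%, with a median difference of 3.24 points (0.259 to 4.76). The plus strand was higher at 84 CpGs, although the minus strand was listed more often. The strands were within 5 points at 57 CpGs and over 20 points apart at 21. Of the 129 CpGs, 27 were on chromosome 2, where the repeat runs in both directions. Deep sites can be listed at lower levels, and the depth of either strand with shTdg is unknown. The part of depth in this difference was not tested.

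Levels with shTdg and shCtr can be compared at 70 bases listed in both. These are 70 of the 73 shCtr sites in the windows, or 95.9%, against 12.2% over the whole shCtr list, and 16.5% of the shTdg sites, against 17.5%. This contrast chose the windows and each arm had 1 library, so the values are a description. The level was lower with shTdg at 53 of the 70 sites and higher at 17. Over all 1567 shared sites of the series 51.2% were lower and 30.2% higher, the rest being ties, of which the windows held none. Without sites at 90% or more, 77.6% of 67 sites were lower in the windows and 60.0% of 991 outside. At the 70 sites the median was 5.78% with shTdg and 11.4% with shCtr. The median difference of shTdg minus shCtr was -4.95 points (-7.16 to -2.97). It was -6.99 points (-9.86 to -3.20) at the 49 sites on chromosome 9. At the 21 on chromosome 2 it was -3.42 points (-6.38 to 0.331), an interval that includes 0. Among sites with less than 30% in shCtr, 47 of 61 were lower with shTdg in the windows and 319 of 652 outside. More sites were listed with shTdg, but the sites common to both lists were mostly at a lower level with it. Nearly all shCtr sites of the windows were shared, so a site entered this set mainly by being listed in the shorter shCtr list. That can favour sites read high with shCtr, and its part in the difference was not tested. Outside the windows 11.7% of the shCtr and 17.6% of the shTdg sites were shared, so the outside values do not carry the same selection.

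The 5 largest differences towards a lower level with shTdg were spread over both chromosomes. At 98504104 of chromosome 2, a plus-strand cytosine in the context tcCGt, the level was 41.2% with shCtr and 8.51% with shTdg, and 14.3% in wt replicate 1. At 3002575 of chromosome 9, on the minus strand of a caCGt, it was 48.5% and 16.7%. At 3026915, on the minus strand of a ctCGc, it was 31.3% and 8.17%. At 3027440, on the plus strand of a ctCGc, it was 27.9% and 7.88%, and wt replicate 1 listed it at 0. At 3025860, on the minus strand of a ttCGt, it was 25.6% and 8.38%.

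The 5 largest differences towards a higher level were smaller and all on the minus strand of chromosome 9. Most candidates lay there, since 49 of the 70 shared sites were on chromosome 9 and 49 on the minus strand. At 3024616, on the minus strand of a tcCGt, the level was 6.30% with shCtr and 20.8% with shTdg, and at 3025377 it was 12.9% and 26.1%. The other 3 were at high levels in both lists. With shCtr and shTdg they were 93.6% and 98.9% at 3005994, 90.1% and 94.6% at 3032365, and 79.4% and 83.8% at 3037354. Over 10 points, 18 of the 70 sites were lower and 2 higher, against 23.4% lower and 6.76% higher over all shared sites.

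**Figure D5:**
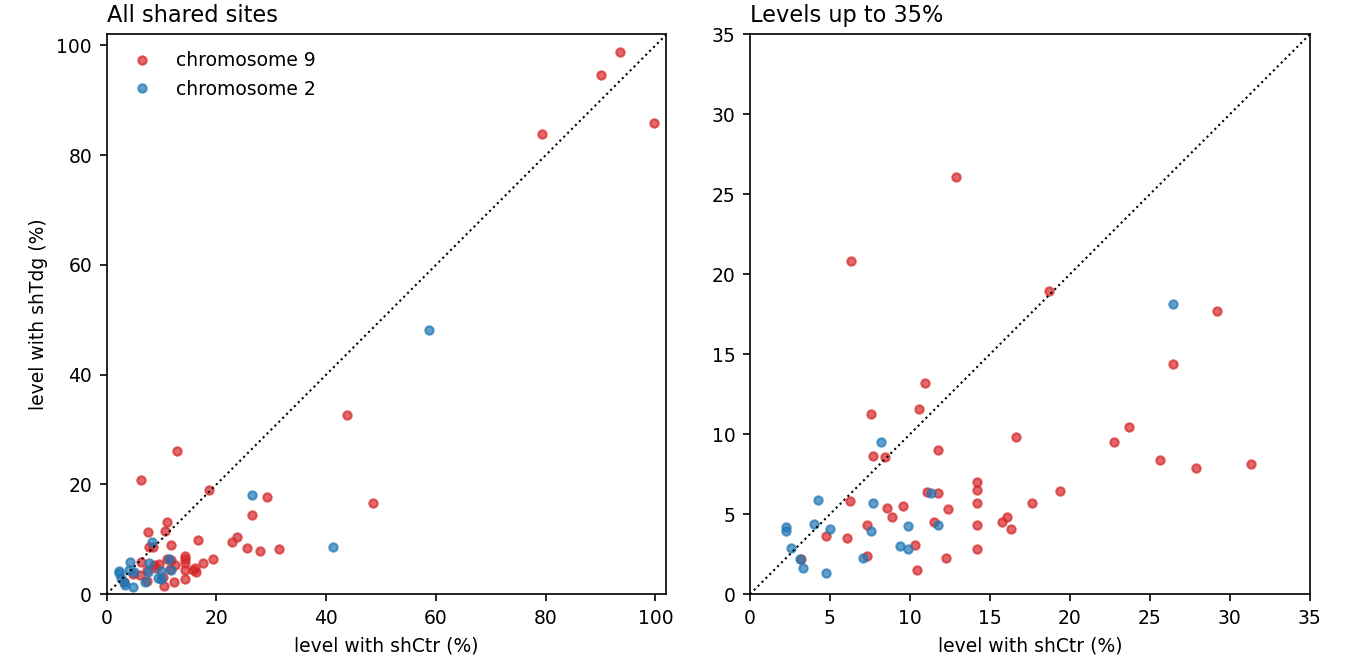
Level with shTdg (vertical axis, percent) against level with shCtr (horizontal axis, percent) at the 70 bases listed in both, by chromosome, with all sites on the left and levels up to 35% on the right. The dotted line marks equal levels, and 53 of the 70 points lie below it.

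The 354 sites listed with shTdg alone were not confined to low levels. Their median was 10.1%, with quartiles of 5.50% and 18.7%, against 5.78% with shTdg at the 70 shared sites. Of them, 339 were at or above 2.22%, the lowest level that shCtr listed in the windows, and 156 at or above the shCtr median of 11.7%. The 3 sites listed with shCtr alone had levels of 24.1% at 98506551 of chromosome 2, 11.7% at 3006539 and 18.7% at 3016343 of chromosome 9. As no depth is known for either library, a site missing from a list was not shown to be unconverted.

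At the same base, 20 sites were listed in all 4 libraries, 8 on chromosome 9 and 12 on chromosome 2, of 57 such sites in the series. Levels there ran from 0 to 15.5% in wt replicate 1 (median 3.04%), from 2.27% to 41.2% with shCtr (median 11.7%) and from 1.31% to 18.1% with shTdg (median 6.09%). The level was lower with shTdg than with shCtr at 17 of the 20. These are plus-strand sites and part of the 70 shared sites of the windows, so this is no separate evidence. Of those 70, 75.7% were lower, and of the 21 on the plus strand 18 were. The highest mean level was that of 98504104, given above. At 98507073 of chromosome 2, in the context caCGg, the levels were 15.5% in wt replicate 1, 26.4% with shCtr and 18.1% with shTdg. At 3024809 of chromosome 9, a ctCGc, wt replicate 1 was at 0, shCtr at 29.2% and shTdg at 17.7%. At 3001277, also a ctCGc, they were at 1.86%, 26.4% and 14.4%. The ggCGa at 98507364 differed little, with 8.66%, 8.17% and 9.50%. The next 3 tcCGt of chromosome 9 by mean level had, in the same order, 0, 22.8% and 9.51% at 3035902, 0.412%, 16.6% and 9.81% at 3036078, and 0.722%, 17.6% and 5.69% at 3001493. At the caCGt at 3022161 they were 2.99%, 14.2% and 6.49%.

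Few of these CpGs lay in the sequence cut by MspI. Of the CpGs of wt replicate 1 in the windows, 4 of 374 were in CCGG, or 1.07%, 2 on each chromosome, against 10.3% outside. Of the shTdg sites in the windows, 48 of 424, or 11.3%, lay within 350 bp of a CCGG CpG listed in wt replicate 1, against 24.1% outside. For shCtr the numbers were 11 of 73, or 15.1%, and 24.2%. MspI sites that wt replicate 1 did not list were not analysed here, so these shares are lower limits.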

How the data were processed

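Per the labels' protocols, DNA was treated with M.SssI, sheared or cut with MspI, bisulfite-converted and amplified by PCR. The submitters' processing notes name the build mm9 and the tools Bismark 0.10.1 and CASAVA 1.8. How sites were called is not given in the sources used here. The deposited values are a percent level per site for 3 libraries. For wt replicate 2 the deposited value is a p-value. From the values, the authors had subtracted a background of 3%, 2.9% (shCtr) and 3.3% (shTdg), each matching 100% of levels. Read totals of wt replicate 2 were recovered as binomial upper tails at a background of 3.8% for p-values above 1e-07, with up to 20000 reads and a relative tolerance of 1e-08.

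Positions were made 1-based. The strand of an shRNA site was taken from the wild-type list that held its CpG. Scripts (Python 3.11.15, SciPy 1.17.1) were tested on simulated data. Named sites were the 5 largest differences each way, sites in all 4 libraries, the 12 fullest unit positions and the commonest contexts. The windows and these rules were chosen with earlier results of these data known, and the context order, flank, strand and MspI counts after the values were seen. No genome of build mm9 was used here, so no annotation of the windows is given. With 1 library per shRNA arm no p-value was computed.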

Additional observations from a re-analysis of the deposited data

How the results depend on the processing

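Of 55 alternative values for 13 results, 26 stayed within the interval of the value reported, 29 moved beyond it and 0 changed sign. Most of them are shares, levels or depths, which cannot be negative, so the last count says nothing about those. The shTdg over shCtr ratio of sites was 3.27 on chromosome 2 alone, 4.34 with strands merged and 4.45 at levels of at least 10%. The share of site pairs at a multiple of the unit, over both chromosomes, was 3.17% in wt replicate 1, 2.50% in wt replicate 2, 1.82% with shCtr and 1.76% with shTdg. In that order it was 6.10%, 4.89% and, with shTdg, 4.58% when distances within 1 bp counted, and 8.37%, 7.03%, 5.47% and 6.71% within 3 bp. It was 4.22% and 3.36% in the wild-type libraries for pairs up to 1000 bp, and 1.96%, 1.62% and, with shTdg, 1.36% up to 5000 bp. On chromosome 2 alone it was 0.775%, 0.693% and, with shTdg, 0.473%. Wider tolerances and shorter distances raise this share by construction. Both strands were listed at 57.1% of CpGs in wt replicate 2 and 60.0% with shTdg on chromosome 2 alone, and at 34.1% in wt replicate 2 for p-values at or below 0.0001. The median level of wt replicate 1 was 5.67% without sites at 0, 3% uncorrected and 3.66% on chromosome 2 alone. The uncorrected value is the background added back to sites at 0, so it does not measure their level. The share of shTdg sites listed in a wild-type library was 96.9% with strands merged. Leaving out a wild-type library gave 34.9% to 83.7% with shTdg and 30.1% to 93.2% with shCtr. The lower value of each is without wt replicate 2, since wt replicate 1 lists the plus strand alone. The median recovered depth was 700 reads on chromosome 2 alone, over 9 sites. No paired analysis was possible because each shRNA group had 1 library. Depth is unknown for 3 libraries, which limits every comparison of lists.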

Other observations

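The sites named here were chosen after their values were seen. Some cytosines in the windows were almost fully converted with shTdg. At 90% or more were 21 of 424 sites, or 4.95%, against 7.78% outside. Of these, 17 were on the minus and 4 on the plus strand, while 59.0% of all shTdg sites of assigned strand in the windows were on the minus strand. All 21 were listed at the same base in wt replicate 2, against 83.7% of all shTdg sites in the windows. The other cytosine of the CpG was listed with shTdg for 11 of them, at levels from 12.1% to 95.3% with a median of 53.0%, and was at 90% or more for 2, the strands of the CpG at 3024632 and 3024633 of chromosome 9 with 94.6% and 95.3%. Of the 21, 9 lay in a CpG that wt replicate 1 listed, and 3 of these were at 0 on its plus strand. With shCtr 3 of 73 sites were at 90% or more, or 4.11%, against 5.19% outside. They were on the minus strand of chromosome 9, which held 41 of the 73 shCtr sites. All 3 were listed with shTdg, as were 95.9% of all shCtr sites in the windows. The highest was 3004776, with 99.7% with shCtr and 85.9% with shTdg, in a CpG at 0 on the plus strand of wt replicate 1.

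Wt replicate 1 listed 8 of 374 CpGs of the windows at 50% or more, or 2.14%, against 5.88% outside. The highest was 98502984 of chromosome 2, a ctCGg, with 99.8%, listed at 86.5% with shTdg. At 98502711, an atCGc, the level was 80.6% in wt replicate 1 and 86.9% with shTdg, while the minus strand was at 13.0% with shTdg. At 3027091 of chromosome 9, a gcCGt, the plus strand was at 67.3% in wt replicate 1 and 35.6% with shTdg, and the minus strand at 98.0% with shTdg.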
